A study of Mus musculus with 9 samples.

Results

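The genes described here make cholesterol and fatty acids or move cholesterol out of the cell, and they were compared between 3 populations of Ly6Chi CD115+ mouse bone marrow cells, R1, R2, and R3. The list named 35 genes by their known roles and was chosen with earlier results of these data known. A gene entered where a probe set of the array names it and no other gene. This held for 33 of the 35, out of 19937 genes in all. *Nr1h2* and *Soat1* have no such probe set and were not analysed here. Of the 33 genes, 15 encode enzymes of sterol synthesis, 6 form the SREBP control group, and 4 make fatty acids. Another 6 belong to the LXR and efflux arm, and 2 carry cholesterol out of lysosomes. The SREBP control group includes *Stard4*, a sterol carrier gene.

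All cells came from steady-state marrow of C57Bl/6 mice aged 8 weeks. They were sorted by flow cytometry as Flt3-CD11c- (R1), Flt3+CD11c- (R2), and Flt3+CD11c+ (R3) cells, and the study names the first 2 populations monocytes and the third pre-DCs, the precursors of dendritic cells. RNA of each population was measured on 3 Affymetrix whole-transcript arrays after amplification from 1 ng. No genotype or treatment differed between the groups. The sources used here do not give the number of mice behind a sample, so p-values measure the spread between these samples. The sample titles give 3 dates, each shared by 1 array of every population, and the replicate numbers used here stand for those dates. *Flt3* and *Itgax*, which encode the sorting markers Flt3 and CD11c, had mean log2 intensities of 7.23 and 5.21 in R1, 7.91 and 5.84 in R2, and 11.04 and 10.78 in R3. *Fcgr3*, a monocyte receptor gene, had means of 10.82, 10.63, and 7.18, in the direction of the study's names for R1 and R2 against R3. Of 5 dendritic cell markers, 5 were called higher in R3 than in either other population, and of 5 monocyte markers, R3 was lower than R1 in 3, lower than R2 in 2, and higher than R2 in 1 (*Cx3cr1*). The dendritic cell markers include *Flt3* and *Itgax*, whose proteins were used for the sort. The study named *Clec9a* and *Fcgr3* as differing on these same arrays. These markers are thus no independent check of the names.

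Cells keep their sterol content in bounds with a pair of opposed systems. When sterols in the endoplasmic reticulum run low, the escort protein SCAP carries the SREBP transcription factors to the Golgi, where they are cleaved and released to turn on genes of cholesterol and fatty acid synthesis, while INSIG proteins hold SCAP back when sterols are plentiful. Oxysterols, made when cholesterol is in excess, activate the LXR nuclear receptors, which turn on the exporters ABCA1 and ABCG1, apolipoprotein E, and, through *Srebf1*, fatty acid synthesis. In phagocytes, LXR is best known for handling the cholesterol of engulfed cells and lipoproteins.

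Promoters of the 2 arms are read by different factors, so the DNA just before the start sites was searched for the letters each factor is known to bind. RefSeq windows (GRCm38.p6, 250 bases before to 50 after a start site) were held for 25 of the 33 genes, 36 windows in all, and for 32851 windows of all genes. *Fdps*, *Fdft1*, *Sqle*, *Stard4*, *Scd1*, *Scd2*, *Abcg1*, and *Npc1* had no entry. The stretches below are those of *Hmgcs1* and *Hsd17b7*, sterol enzymes with SREBP letters, and of *Srebf2*, the SREBP gene itself. They are printed 5′ to 3′ on the gene's strand and leave out bases inside the gene. Capitals mark the sterol regulatory element letters TCACNNCAC and the NF-Y letters CCAAT, which read ATTGG on the opposite strand.
Hmgcs1, chr13:119690101-119690350, plus strand: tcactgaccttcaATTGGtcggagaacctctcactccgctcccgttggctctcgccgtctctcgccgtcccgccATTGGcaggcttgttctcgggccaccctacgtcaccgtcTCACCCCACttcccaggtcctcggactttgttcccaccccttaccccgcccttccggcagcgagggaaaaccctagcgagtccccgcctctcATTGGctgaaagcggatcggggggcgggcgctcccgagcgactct
Hsd17b7, chr1:169969243-169969455, minus strand: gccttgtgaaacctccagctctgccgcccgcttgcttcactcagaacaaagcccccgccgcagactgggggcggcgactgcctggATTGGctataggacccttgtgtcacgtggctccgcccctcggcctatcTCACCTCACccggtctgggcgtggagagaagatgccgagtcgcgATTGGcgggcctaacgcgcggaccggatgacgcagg
Srebf2, chr15:82147019-82147268, plus strand: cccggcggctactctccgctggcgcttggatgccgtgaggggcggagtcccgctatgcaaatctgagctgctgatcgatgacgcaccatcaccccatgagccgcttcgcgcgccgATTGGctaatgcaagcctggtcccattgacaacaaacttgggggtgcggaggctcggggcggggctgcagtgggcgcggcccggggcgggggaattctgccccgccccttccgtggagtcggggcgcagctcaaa

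The stricter sterol element TCACNCCAC was in 1.24% of all windows on either strand and, among the 25 genes with a window, in that of *Hmgcs1* alone. The looser TCACNNCAC was in 3.77% of all windows and in 3 of the 15 windows of sterol synthesis genes, those of *Hmgcs1*, *Hsd17b7*, and, as TCACTTCAC, *Dhcr7*. CCAAT was in 37.4% of all windows and in 12 of the 15 windows of sterol synthesis genes, at least 1 for each of the 12 genes with a window. Of the 8 windows of LXR and efflux genes, 2 held CCAAT and none held either sterol element. The LXR element, AGGTCA repeated after 4 bases, was in 3.02% of all windows with up to 2 letters changed and in 0 of these 8, and the single match among the 36 windows lay in one of *Dhcr7*, a sterol synthesis gene. The sterol synthesis genes thus shared the CCAAT letters whether or not their RNA differed between populations. These are matches of letters in short windows, and no binding was measured.

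R3 pre-DCs had higher levels than R2 monocytes for 12 of the 33 genes, and no gene was lower by the test. The 12 were *Hmgcs1*, *Sqle*, *Cyp51*, *Hsd17b7*, and *Dhcr7* of sterol synthesis, *Srebf2* and *Scap* of the SREBP system, *Fasn* and *Scd2* of fatty acid synthesis, the exporters *Abca1* and *Abcg1*, and *Npc1*. Calls rest on limma, fitted over all 19937 genes and 9 arrays, at an adjusted p (Benjamini-Hochberg) under 0.05. The 12 make up 36.4% of the 33, where 4.85% of all genes were called higher in R3, 4.69% were called lower, and 9.55% were called in either direction. Because the list was chosen with earlier results known, these shares describe it and do not test it. The median log2 difference (R3 minus R2) was 0.30 over the 33 genes and -0.01 over all genes. In these sorted populations a gene expressed by fewer cells and less RNA per cell cannot be told apart. With limma, 16 of the 33 were higher and 2 lower at an unadjusted p under 0.05, where 19.4% of all genes passed in either direction.

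Against R1 monocytes, 11 genes were higher in R3 and 3 were lower. *Fdps* joined the higher set, *Dhcr7* and *Abcg1* did not pass in this comparison, and *Mvd*, *Apoe*, and *Npc2* were lower. Across all genes 6.49% were called higher, 7.02% lower, and 13.5% in either direction, against 33.3% of the 33 higher and 42.4% in either direction. The median log2 difference (R3 minus R1) was 0.28 over the 33 and -0.02 over all genes. Both comparisons use the same R3 arrays, so their calls are not independent. Between R2 and R1, limma called 0 of the 33, where 0.391% of all genes were called. At an unadjusted p under 0.05, limma found 0 higher and 4 lower in R2 (*Mvd*, *Abca1*, *Abcg1*, and *Npc2*). Over all genes, 10.7% passed in either direction, 4.56% higher and 6.11% lower. The 4 of 33 thus lie close to the share for either direction but above that for lower genes. Of the 33 log2 differences (R2 minus R1), 10 were above 0 and 23 below. This tilt toward lower values in R2 was not tested. Using the methods' t-test (unpaired) at an unadjusted p under 0.05, 4 were lower and 0 higher. Over all genes 4.58% were lower and 7.46% passed in either direction. After Benjamini-Hochberg adjustment of that test, 0 of the 33 passed.

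**Figure D1:**
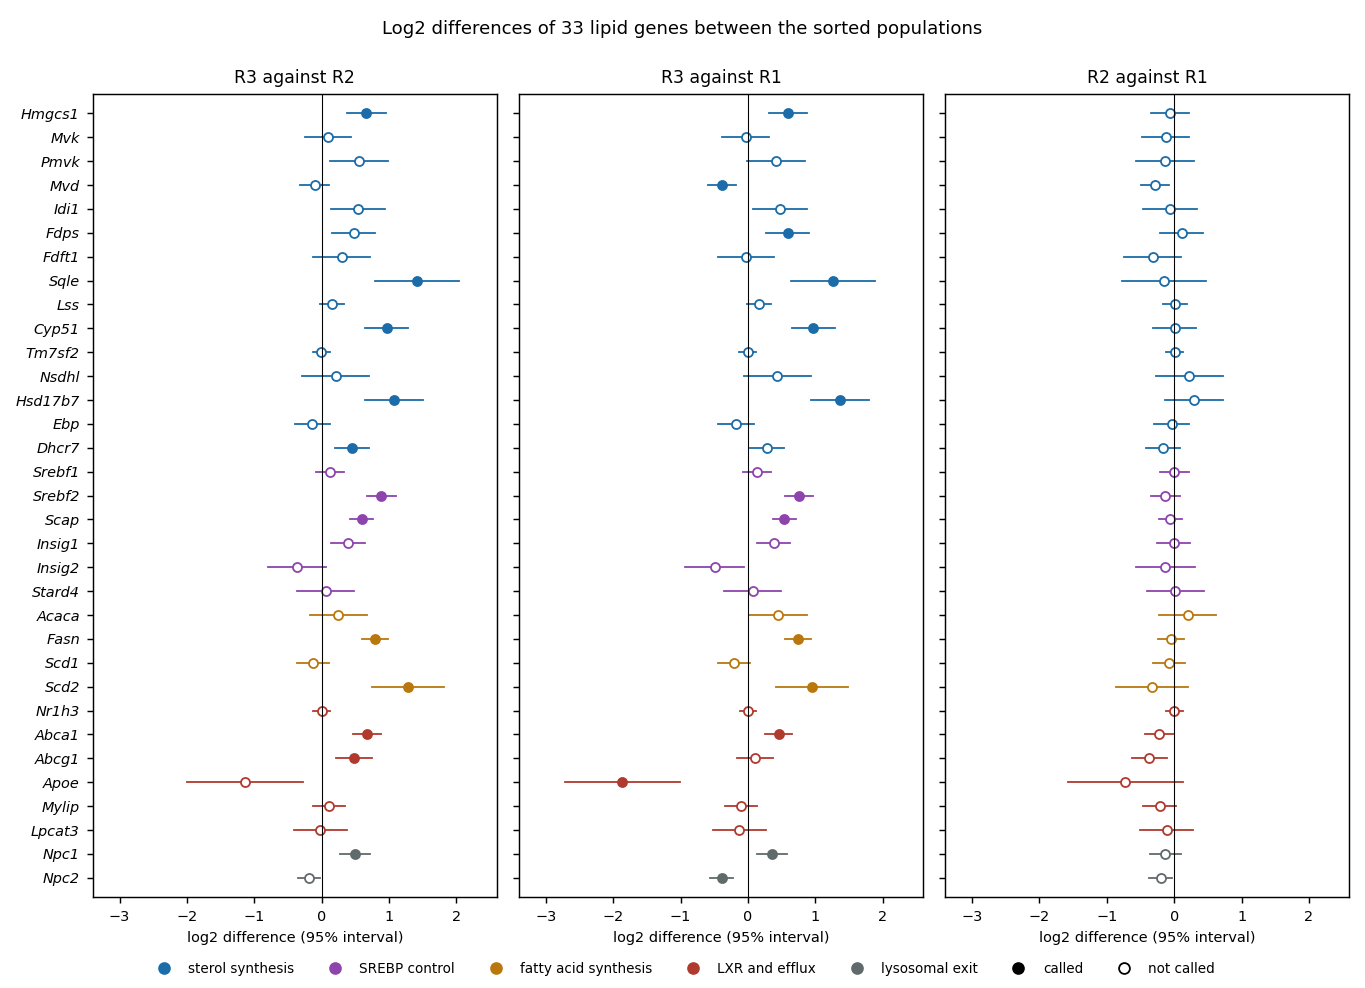
Log2 differences (x axis, first population minus second) of the 33 genes in the 3 comparisons, with 95% intervals from limma; colors give the role of the gene and filled points are called. Filled points lie to the right of 0 for 12 genes against R2 and 11 against R1, 3 lie to the left against R1, and none is filled for R2 against R1.

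In the 15 sterol synthesis genes the counts were 5 higher and 0 lower against R2, with a median log2 difference of 0.45, and 5 higher and 1 lower against R1, with a median of 0.42. In the 6 LXR and efflux genes they were 2 higher and 0 lower against R2, with a median of 0.05, and 1 higher and 1 lower against R1, with a median of -0.05. The share called higher against R2 was the same in both arms, 33.3%, where 4.85% of all genes were called higher. Against R1 it was 33.3% for sterol synthesis and 16.7% for LXR and efflux, where 6.49% of all genes were. The sterol count against R2 was 3 without R2 replicate 2, 1 and 0 without the dates of replicates 2 and 3, and 0 with the methods' t-test after adjustment. Calls higher over all genes fell as well, from 4.85% to 3.50%, 1.80%, 2.43%, and 2.20% in these fits. Against R1 the sterol count was 3 without R3 replicate 1 or in a fit to those populations alone. It was 2 to 3 without a date and 0 with the methods' t-test after adjustment. Over all genes, calls higher against R1 fell from 6.49% to 4.82%, 4.39%, 2.51% to 4.20%, and 1.45%. The median of the sterol genes against R1 fell to 0.18 without R1 replicate 1 and to 0.27 without R3 replicate 1. It was 0.17 without the whole date of replicate 1. The 2 arms were not tested against each other. Between R2 and R1 the medians were -0.06 for sterol synthesis and -0.22 for LXR and efflux, with no call in either.

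The early steps of the pathway turn acetyl units into isoprenoids. *Hmgcs1* encodes the synthase that makes HMG-CoA, the entry to the mevalonate pathway. Its log2 intensities were 7.98, 8.41, and 8.24 in R1, 8.25, 8.20, and 7.97 in R2, and 8.95, 8.69, and 8.79 in R3 (replicates 1, 2, and 3 in this and all later lists). Each R3 array lay above each of the other 6. The log2 difference was 0.66 ± 0.13 (SE, n = 3 per population; limma adjusted p = 0.00897) against R2, a 1.59-fold difference, and 0.60 ± 0.13 (limma adjusted p = 0.0118) against R1.

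*Fdps* encodes farnesyl diphosphate synthase, which makes the last intermediate shared by sterols and prenylated proteins. On the arrays its log2 intensities were 9.01, 9.23, and 9.37 in R1, 9.30, 9.22, and 9.43 in R2, and 10.03, 9.51, and 9.84 in R3. R3 arrays lay above the others here too. The log2 difference passed against R1 (0.59 ± 0.14, limma adjusted p = 0.0226) and missed against R2 (0.48 ± 0.14, limma adjusted p = 0.0723; 0.0205 without R3 replicate 2). The call against R1 was lost when any of R1 replicate 1, R1 replicate 2, R3 replicate 1, or R3 replicate 3 was left out (limma adjusted p from 0.0602 to 0.0762).

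*Mvd*, the mevalonate diphosphate decarboxylase gene, went the other way. Log2 intensities of *Mvd* were 7.98, 8.01, and 8.22 in R1, 7.81, 7.75, and 7.81 in R2, and 7.53, 7.71, and 7.81 in R3. R3 and R2 overlapped, and both lay below each R1 array. *Mvd* was lower in R3 than in R1 by a log2 difference of -0.39 ± 0.09 (limma adjusted p = 0.0219), and the call was lost without R1 replicate 3 (0.0644), R3 replicate 1 (0.0734), or R3 replicate 2 (0.0543).

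*Pmvk* and *Idi1*, which flank *Mvd* in the pathway as a kinase and an isomerase, had log2 differences of 0.55 and 0.54 against R2 that were not called (95% intervals from 0.12 to 0.98 and from 0.13 to 0.94). Their log2 intensities ranged from 7.18 to 8.36 for *Pmvk*, where R3 replicate 3 was highest, and from 6.94 to 7.98 for *Idi1*. A dimmer probe set of *Idi1*, not used in the fit, had means of 6.15 in R1, 6.75 in R2, and 7.44 in R3, and with the mean of both probe sets *Idi1* was called higher in R3 than in R1 (limma adjusted p = 0.0325). *Idi1* also passed without R1 replicate 1 against R2 (0.0364) and without R1 replicate 3 against R1 (0.0347). *Mvk*, mevalonate kinase, ranged from 6.98 to 7.67 in log2 intensity and differed by 0.09 against R2, with a 95% interval from -0.25 to 0.44.

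Among the later steps, *Sqle* encodes squalene epoxidase, the first oxygen-dependent and a rate-limiting step of the pathway. Its log2 intensities were 6.43, 7.62, and 7.22 in R1, 7.11, 6.70, and 7.02 in R2, and 8.59, 8.46, and 8.02 in R3. The R3 arrays stood apart from the rest, and R1 replicate 1 was the lowest of the 9. In limma the log2 difference was 1.41 ± 0.28 (2.66-fold, limma adjusted p = 0.0109) against R2 and 1.27 ± 0.28 (2.41-fold, limma adjusted p = 0.0145) against R1. Without R2 replicate 2 the call against R2 was lost (0.0512), as was that against R1 without R3 replicate 1 (0.0584) or R3 replicate 2 (0.0528).

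*Cyp51*, the lanosterol demethylase gene, had log2 intensities of 7.07, 7.24, and 7.37 in R1, 7.37, 7.17, and 7.16 in R2, and 8.50, 7.94, and 8.15 in R3. Every R3 array exceeded every other array by more than the spread within R1 or R2. The log2 difference was 0.96 ± 0.14 (1.95-fold, limma adjusted p = 0.00228) against R2 and 0.97 ± 0.14 (1.96-fold, limma adjusted p = 0.00161) against R1.

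*Hsd17b7* encodes the sterol ketoreductase that acts in C4 demethylation, and its promoter is the second printed above. The array values (log2 intensity) were 6.09, 6.64, and 6.10 in R1, 6.90, 6.45, and 6.35 in R2, and 7.87, 7.56, and 7.51 in R3. R1 and R2 overlapped, and R3 lay above both. In limma the log2 difference was 1.08 ± 0.19 (2.11-fold, limma adjusted p = 0.00639) against R2 and 1.37 ± 0.19 (2.59-fold, limma adjusted p = 0.00125) against R1.

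*Dhcr7*, which encodes the last reductase on one branch to cholesterol, had log2 intensities of 7.42, 7.81, and 7.63 in R1, 7.63, 7.33, and 7.38 in R2, and 7.93, 7.87, and 7.91 in R3. R3 was above each other array, though R1 replicate 2 came within 0.06 of R3 replicate 2 on the same date. The log2 difference of 0.45 ± 0.11 against R2 was called (limma adjusted p = 0.0332), and that of 0.28 ± 0.11 against R1 was not. With the title date as a replicate block the call against R2 was lost (limma adjusted p = 0.0727). It was also lost without R1 replicate 3 (0.0517), R2 replicate 2 (0.131), R2 replicate 3 (0.125), or any R3 array (0.0778 to 0.103).

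The other late genes did not pass. *Ebp* and *Tm7sf2*, a sterol isomerase and a reductase gene, had log2 differences of -0.14 and -0.01 against R2, with 95% intervals from -0.40 to 0.13 and from -0.13 to 0.12. *Tm7sf2* had nearly the same value on every array (7.18 to 7.21) and the identical value on all R2 arrays, so its probe set carries little information on differences. Log2 intensities ranged from 8.50 to 9.03 for *Ebp*, from 7.55 to 8.86 for *Nsdhl*, from 5.27 to 5.59 for *Lss*, and from 8.27 to 9.01 for *Fdft1*. *Nsdhl*, *Lss*, and *Fdft1* differed by 0.21, 0.16, and 0.30 against R2, with 95% intervals that include 0. The probe set used for *Fdft1* had means of 8.76, 8.44, and 8.74 in R1, R2, and R3. A dimmer one, not used in the fit, had means of 7.41, 7.53, and 7.70. Values along the pathway were thus uneven, from 1.95-fold to 2.66-fold higher than in R2 for *Cyp51*, *Hsd17b7*, and *Sqle* to log2 differences between -0.14 and 0.09 for *Mvk*, *Mvd*, *Tm7sf2*, and *Ebp*.

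**Figure D2:**
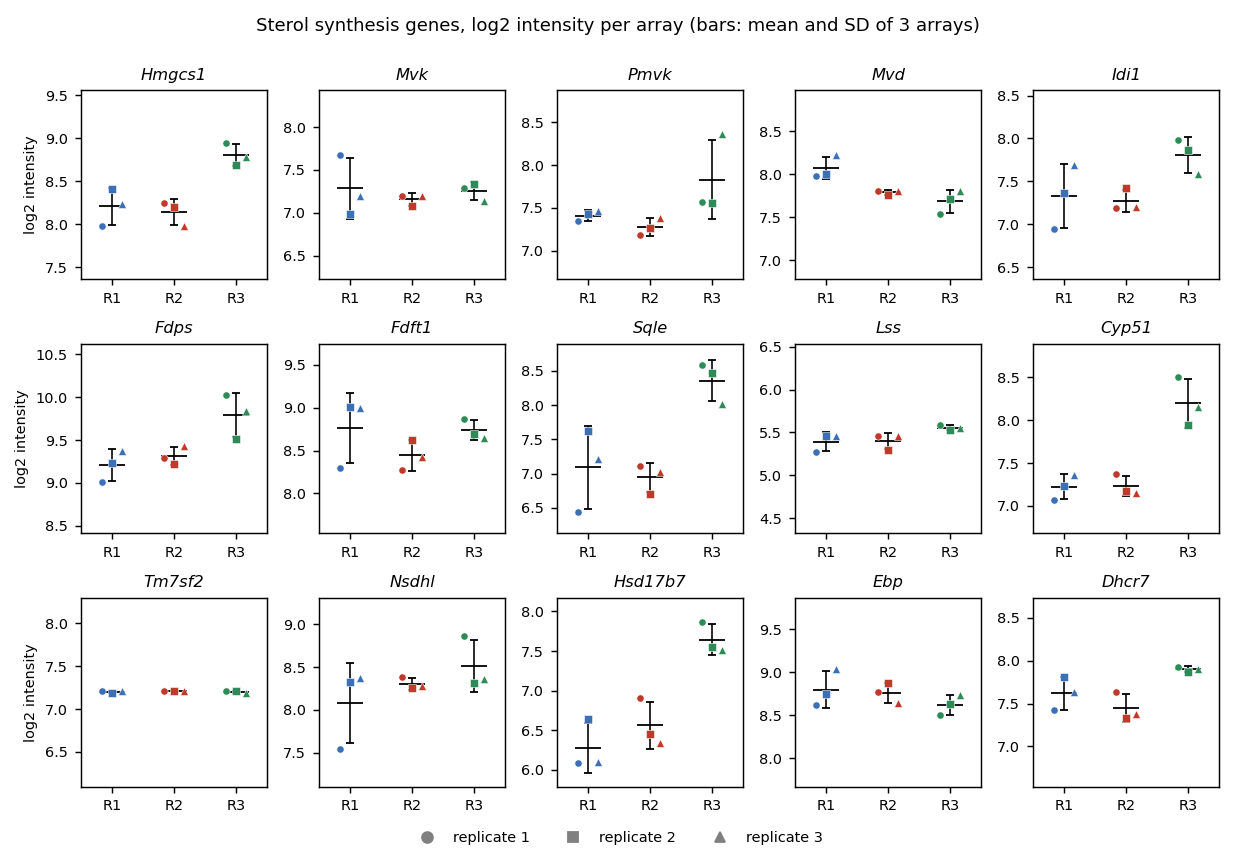
Log2 intensity (y axis) of the 15 sterol synthesis genes on each array of R1, R2, and R3, with the marker shape giving the replicate number and the bars the mean and SD of 3 arrays; panels have their own ranges. In Sqle, Cyp51, and Hsd17b7 the 3 R3 points lie above all R1 and R2 points, while Mvd is highest in R1 and Tm7sf2 stays between 7.18 and 7.21.

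Of the 6 genes of the SREBP control group, *Stard4* included, 2 were called in both comparisons with R3. *Srebf2* encodes SREBP-2, the SREBP that chiefly drives cholesterol synthesis. Log2 intensities of *Srebf2* were 8.95, 9.20, and 9.23 in R1, 9.11, 8.98, and 8.90 in R2, and 9.86, 9.96, and 9.83 in R3. The gap between R3 and the other arrays exceeded the spread within each population. The log2 difference was 0.89 ± 0.09 (1.85-fold, limma adjusted p = 0.000306) against R2 and 0.76 ± 0.09 (1.69-fold, limma adjusted p = 0.00067) against R1.

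*Scap* encodes the escort of the SREBPs. Log2 intensities of *Scap* were 8.49, 8.54, and 8.66 in R1, 8.52, 8.59, and 8.42 in R2, and 9.04, 9.15, and 9.13 in R3. Again the R3 arrays did not overlap the others. In limma the log2 difference was 0.60 ± 0.08 (1.51-fold, limma adjusted p = 0.000882) against R2 and 0.54 ± 0.08 (1.46-fold, limma adjusted p = 0.00126) against R1.

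*Srebf1*, which encodes the SREBP-1 forms that chiefly drive fatty acid synthesis and is itself an LXR target, had log2 intensities from 7.87 to 8.26 and differed by 0.13 against R2, with a 95% interval from -0.08 to 0.34. *Insig1*, an SREBP target that holds SCAP back, had log2 intensities from 8.56 to 9.21 and log2 differences of 0.39 against R2 and 0.38 against R1 that missed the threshold (limma adjusted p = 0.0642 and 0.0535), although every R3 array was above every R1 and R2 array. Without R3 replicate 2, *Insig1* passed in both (0.00958 and 0.00822). *Insig2*, which has the same role but is not an SREBP target, had log2 intensities from 6.81 to 7.88 and log2 differences of -0.36 and -0.49 that were not called (limma adjusted p = 0.369 and 0.147), though the second passed without R1 replicate 1 (0.0125). *Stard4*, a sterol carrier gene, ranged from 7.04 to 7.85 in log2 intensity and differed by 0.06 against R2 (95% interval from -0.36 to 0.48).

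Of the fatty acid genes, *Fasn* encodes fatty acid synthase, which builds palmitate. Its log2 intensities were 7.53, 7.57, and 7.78 in R1, 7.69, 7.48, and 7.57 in R2, and 8.38, 8.34, and 8.40 in R3. The R3 arrays lay close together and above the rest. The log2 difference was 0.79 ± 0.09 (1.73-fold, limma adjusted p = 0.000333) against R2 and 0.75 ± 0.09 (1.68-fold, limma adjusted p = 0.000384) against R1.

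*Scd2* encodes a stearoyl-CoA desaturase, which makes monounsaturated fatty acids. The array values (log2 intensity) were 8.02, 8.56, and 9.09 in R1, 8.02, 8.20, and 8.47 in R2, and 9.43, 9.40, and 9.70 in R3. R1 varied by more than 1 log2 unit between its arrays, and R3 lay above all of them. In limma the log2 difference was 1.28 ± 0.24 (2.43-fold, limma adjusted p = 0.00819) against R2 and 0.95 ± 0.24 (1.93-fold, limma adjusted p = 0.027) against R1. The call against R1 was lost without R1 replicate 2 (0.0762) or any 1 of the R3 arrays (0.0582 to 0.0898).

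*Acaca*, acetyl-CoA carboxylase, which supplies malonyl-CoA to fatty acid synthase, had log2 intensities from 7.16 to 8.30 and log2 differences of 0.25 against R2 and 0.45 against R1 that were not called. Its 2 probe sets disagreed, since the dimmer one had means of 6.82, 7.08, and 6.95 in R1, R2, and R3. *Scd1*, the paralog of *Scd2*, had log2 intensities between 4.05 and 4.52, with the identical value on all R2 arrays, and was not called, except as lower in R3 than in R1 without R1 replicate 1 (limma adjusted p = 0.0354).

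**Figure D3:**
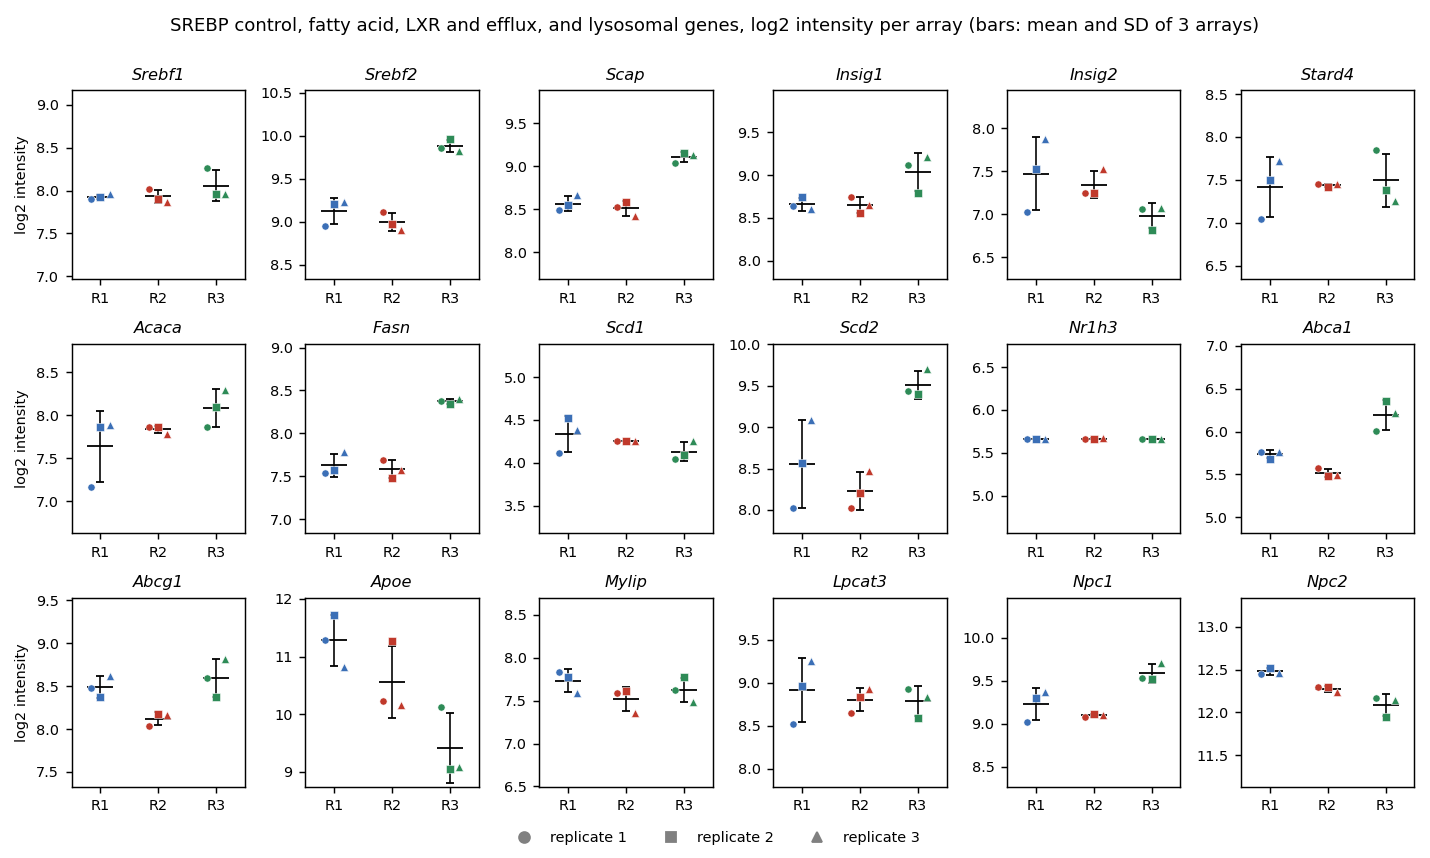
Log2 intensity (y axis) of the 18 genes of SREBP control, fatty acid synthesis, LXR and efflux, and lysosomal exit on each array, with the marker shape giving the replicate number and the bars the mean and SD of 3 arrays; panels have their own ranges. Srebf2, Scap, Fasn, and Scd2 are highest on the 3 R3 arrays, Abcg1 is lowest on the 3 R2 arrays, and Apoe and Npc2 are highest in mean in R1 and lowest in R3.

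Efflux genes did not share one direction. *Abca1* encodes the exporter that loads cholesterol onto lipid-poor apolipoproteins. On the arrays its log2 intensities were 5.77, 5.68, and 5.77 in R1, 5.57, 5.49, and 5.49 in R2, and 6.00, 6.35, and 6.22 in R3. The 3 populations did not overlap, with R2 lowest and R3 highest. The log2 difference was 0.68 ± 0.09 (1.60-fold, limma adjusted p = 0.00131) against R2 and 0.45 ± 0.09 (1.37-fold, limma adjusted p = 0.00953) against R1, and R2 minus R1 was -0.22 ± 0.09 and not called. The mean of *Abca1* over the 9 arrays, 5.82, is below the log2 value of 6 used as a filter for dim genes in an alternative, so it has no value there.

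*Abcg1* encodes the exporter that passes cholesterol to high-density lipoproteins. Its log2 intensities were 8.48, 8.37, and 8.62 in R1, 8.03, 8.17, and 8.16 in R2, and 8.60, 8.37, and 8.82 in R3. R1 and R3 overlapped, and R2 lay below both. It was called against R2 (0.48 ± 0.12, 1.39-fold, limma adjusted p = 0.0322) and not against R1 (0.11 ± 0.12). Leaving out any of the R2 arrays (0.0804 to 0.124), R3 replicate 1 (0.0924), or R3 replicate 3 (0.0842) ended the call.

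*Apoe* encodes apolipoprotein E, an acceptor of exported cholesterol that macrophages secrete. The array values (log2 intensity) were 11.29, 11.72, and 10.83 in R1, 10.24, 11.28, and 10.16 in R2, and 10.12, 9.04, and 9.09 in R3. R3 lay below both other populations, and R2 overlapped R1. Against R1 the log2 difference was -1.86 ± 0.38 (3.64-fold lower in R3, limma adjusted p = 0.0103). Against R2 it was -1.14 ± 0.38 (limma adjusted p = 0.114), which passed without R3 replicate 1 (0.0436), the R3 array with the most *Apoe*. *Apoe* is also abundant in tissue macrophages. Of 8 marker genes of resident marrow macrophages, *Axl* alone was called in any comparison, lower in R3 than in R1 with means of 5.96 and 6.82, and the summed linear intensity of the 8 ranged from 292 to 342 in R1, from 281 to 288 in R2, and from 259 to 289 in R3. Their part in the *Apoe* difference was not tested.

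The remaining LXR genes differed little. *Nr1h3*, the gene for LXR alpha, had 5.66 or 5.67 on all 9 arrays, with identical values within R1 and within R3, so this probe set held almost no variation to compare. *Mylip*, which encodes the LXR-induced ligase that degrades the LDL receptor, ranged from 7.36 to 7.84 in log2 intensity and differed by 0.11 against R2 (95% interval from -0.13 to 0.35). *Lpcat3*, which builds polyunsaturated phospholipids under LXR control, ranged from 8.52 to 9.25 and differed by -0.02 (95% interval from -0.41 to 0.38).

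NPC1 and NPC2 act together to release cholesterol from lysosomes, and their genes differed in opposite directions. *Npc1* had log2 intensities of 9.02, 9.30, and 9.37 in R1, 9.08, 9.12, and 9.10 in R2, and 9.53, 9.52, and 9.71 in R3. Its R3 arrays were above the others, with log2 differences of 0.49 ± 0.10 (1.40-fold, limma adjusted p = 0.0133) against R2 and 0.36 ± 0.10 (limma adjusted p = 0.0427) against R1. Leaving out R2 replicate 1 ended the first call (0.0556), and the second did not survive leaving out R1 replicate 1 or 2 or any 1 of the R2 or R3 arrays (0.0667 to 0.131).

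*Npc2* had log2 intensities of 12.45, 12.52, and 12.46 in R1, 12.30, 12.30, and 12.24 in R2, and 12.17, 11.94, and 12.15 in R3. The populations did not overlap, with R1 highest and R3 lowest. The log2 difference of R3 against R1 was -0.39 ± 0.08 (1.31-fold lower, limma adjusted p = 0.00755), and those of R3 against R2 and R2 against R1 were -0.19 and -0.20 and were not called.

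The 9 arrays were also compared by the mean deviation of each group of genes from its mean over all arrays. For sterol synthesis it was -0.32, -0.02, and -0.01 on the R1 arrays, -0.11, -0.19, and -0.19 on the R2 arrays, and 0.37, 0.21, and 0.26 on the R3 arrays. R3 stood above the other populations, and R1 replicate 1 was the lowest array. Within a date, the median log2 difference of the sterol genes between R3 and R1 was 0.58 for replicate 1 but 0.13 and 0.09 for replicates 2 and 3, against 0.42 over all arrays. Between R3 and R2 it was 0.48, 0.29, and 0.38. For LXR and efflux genes the deviations were 0.13, 0.24, and 0.16 in R1, -0.17, 0.05, and -0.17 in R2, and 0.03, -0.16, and -0.11 in R3, so the R1 arrays had the highest means. *Apoe* has the largest range of these 6 genes. By the median over the 6 genes, R1 (0.04 to 0.11) overlapped R3 (-0.02 to 0.05).

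**Figure D4:**
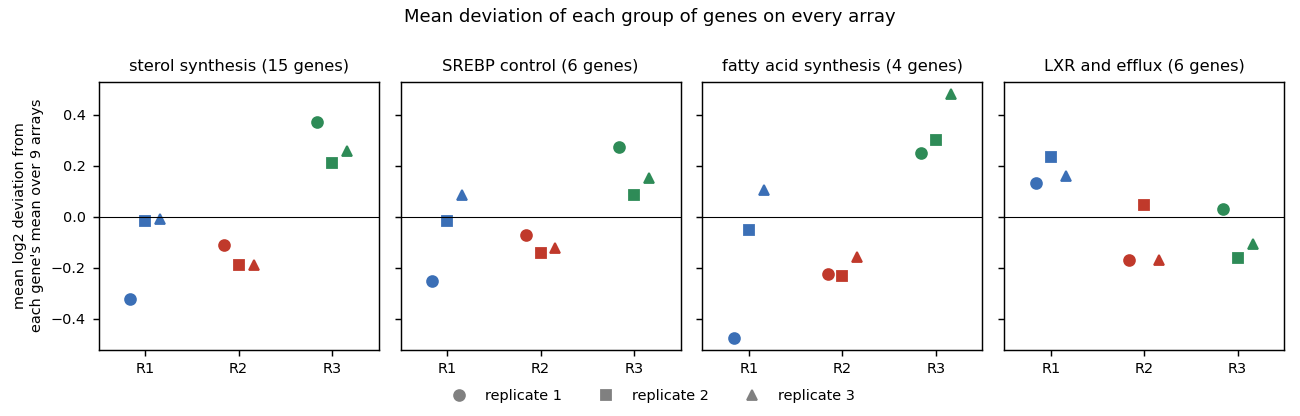
Mean log2 deviation from each gene's mean over the 9 arrays (y axis) for 4 groups of genes on each array of R1, R2, and R3, with the marker shape giving the replicate number. Sterol synthesis genes lie between 0.21 and 0.37 on the R3 arrays and at or below -0.01 on all others, with R1 replicate 1 lowest at -0.32, while the mean of the LXR and efflux genes, Apoe included, is highest on the R1 arrays.

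Further genes of the same pathways were taken from wider lists, of which 28 were measured. Against R2, 4 were higher in R3 (14.3%, where 4.85% of all genes were) and 2 were lower. The higher ones were *Fads2* (log2 difference 3.23 ± 0.25, 9.36-fold, limma adjusted p = 4.18e-05) and *Fads1* (1.23 ± 0.30, limma adjusted p = 0.0326), desaturases that make polyunsaturated fatty acids, *Sc5d* (0.90 ± 0.20, limma adjusted p = 0.0203), a late sterol desaturase, and *Elovl5* (0.49 ± 0.13, limma adjusted p = 0.0497), a fatty acid elongase. The lower ones were *Lpl*, lipoprotein lipase (-2.34 ± 0.12, limma adjusted p = 3.76e-06), and *Lipa*, the lysosomal acid lipase (-0.79 ± 0.18, limma adjusted p = 0.0202).

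Against R1, *Fads2* (3.76, 13.5-fold) and *Fads1* (1.26) were higher in R3, and *Lpl* (-3.15, 8.89-fold lower), *Lipa* (-1.13), and *Pltp*, the phospholipid transfer protein gene (-0.70), were lower. The 2 higher genes of 28 (7.14%) lie close to the share over all genes, 6.49%. The groups differed in direction, however. The 2 higher genes were among 11 fatty acid genes (18.2%), of which 0 were lower. The 3 lower genes were among 11 genes of efflux and lipid handling (27.3%), of which 0 were higher. Over all genes 7.02% were called lower. Between R2 and R1, *Lpl* was called, with a log2 difference of -0.81 ± 0.12 (limma adjusted p = 0.0341). Its level thus fell from R1 through R2 to R3. The median log2 difference over the 28 genes was 0.13 against R2 and 0.05 against R1, below those of the 33.

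Markers of cell division and of other cell types were also compared. Of 9 mitosis genes, which mark dividing cells, 4 were called higher in R3 than in R1 and 2 in R2 than in R1. Over all genes, 6.49% and 0.211% were called higher in these comparisons. The median log2 differences of the 9 were 0.59 and 0.56. Between R3 and R2, limma called 0 of the 9, with 0 at an unadjusted p under 0.05 and a median of 0.04. The summed linear intensity of the 9 ranged from 12240 to 16520 in R1, from 19540 to 20130 in R2, and from 19590 to 20350 in R3. The part of cell division in the difference between R3 and R1 was not tested.

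Granule genes of neutrophils varied between the R3 arrays, with log2 intensities of *Camp* of 10.79, 6.16, and 8.77 and of *Ngp* of 10.73, 6.27, and 9.03. The summed linear intensity of 5 neutrophil genes was 4398 to 5812 in R1, 5456 to 7009 in R2, and 853 to 10020 in R3. Most of this sum was *S100a8*, with mean log2 intensities of 12.21, 12.53, and 11.12 in R1, R2, and R3. *Camp*, *Ngp*, and *Ltf* had higher means in R3 than in R1 (8.57 and 6.59, 8.68 and 5.78, 6.96 and 5.22), and *Ly6g* had 4.57 and 4.62. The sum thus does not follow the granule genes. In limma 0 of the 5 were called in any comparison, with 1 higher in R3 than in R1 at an unadjusted p under 0.05. Without R3 replicate 1, the array with the most *Camp*, 10 of the 33 genes were higher in R3 than in R2, 4 of them sterol synthesis genes, and 7 were higher than in R1, 3 of them sterol synthesis genes. In that fit 3.69% and 4.82% of all genes were called higher. Of 4 B cell, 4 T and NK cell, and 3 erythroid markers, limma called 0 in any comparison, and at an unadjusted p under 0.05 the sole one was a B cell marker, higher in R2 than in R1. The part of neutrophil RNA in the lipid gene differences was not tested.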

How the data were processed

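RNA of 9 samples (3 each of R1, R2, and R3) was amplified from 1 ng with a NuGEN kit, labeled with biotin, and read on Mouse Gene 1.0 ST arrays (Affymetrix). The authors deposited 1 linear intensity per probe set and array, for 34760 probe sets. They worked in GenePattern, and the background correction, summarization, and normalization are not given in the sources used here, which limits what a difference between arrays can be ascribed to. Array medians lay between 5.86 and 6.02 on the log2 scale computed here from the deposited intensities. No detection call was used. Exact repeats of a value were not limited to *Tm7sf2*, *Scd1*, and *Nr1h3*. *Mvd* had the same value, 7.81, on R2 replicates 1 and 3 and on R3 replicate 3. *Mvk*, *Lss*, *Dhcr7*, *Srebf1*, *Insig1*, *Insig2*, *Stard4*, *Acaca*, *Abca1*, *Abcg1*, and *Npc2* also shared a value between arrays. For *Lss*, *Srebf1*, *Insig2*, *Stard4*, *Acaca*, *Abca1*, and *Npc2*, arrays of the same population shared it. Repeats within a population can narrow the spread behind its SE and p-values, and their source is not known.

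Probe sets naming exactly 1 gene in the platform annotation (21640) were kept, and a gene was read from the one with the highest mean log2 intensity, which gave 19937 genes. Coordinates and promoters came from RefSeq (GRCm38.p6). Populations were compared with limma 3.58.1 in R 4.3.3 (lmFit and eBayes, 1 model over 9 arrays, 6 residual degrees of freedom), with Benjamini-Hochberg adjustment over all genes within a comparison. The script was tested on simulated data. With 3 arrays per population, their number limits the precision.

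The genes and lists were chosen with earlier results of these data known. Every measured gene of the list is named. Those called in at least 1 comparison are given on every array, the others by ranges and differences, and wider lists by counts and their called genes. The date in the sample titles pairs 1 array of each population. The calls do not use it, and it entered as a block in an alternative only. Deviations of arrays of the same date correlated between -0.02 and 0.15 over genes. Alternatives were the date as a replicate block, median centring, quantile normalization, a filter at a mean log2 of 6, a fit to 2 populations, the methods' t-test, array weights, a mean-variance trend, the mean of a gene's probe sets, and leaving out each array or date.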

Additional observations from a re-analysis of the deposited data

How the results depend on the processing

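Of 26 calls, 5 held under every alternative run: *Srebf2* and *Fasn* in both comparisons with R3, and *Scap* against R2. No call reversed, 8 held under every alternative that kept all arrays, and 14 further calls appeared under an alternative only, the methods' t-test at an unadjusted p included. The count of genes higher in R3 than in R2 was 12. With the methods' t-test after Benjamini-Hochberg adjustment it became 5, where 2.20% of all genes were called higher. Leaving out single arrays or dates gave 4 to 13, with 4 without the date of replicate 2 or of replicate 3, where calls higher over all genes also fell, from 4.85% to 1.80% and 2.43%. The count lower was 0, became 1 (*Insig2*) with the methods' t-test at an unadjusted p under 0.05, and ranged from 0 to 1 with arrays left out, the 1 being *Apoe* without R3 replicate 1. Against R1, 11 genes were higher. That count was 7 in a fit to the 2 populations, where 4.39% of all genes were called higher. With the methods' t-test after adjustment it was 3, where 1.45% of all genes were. Leaving out arrays or dates gave 6 to 12, with 7 without R3 replicate 1 and 6 without any 1 date, where 2.51% to 4.20% of all genes were called higher against 6.49%. The 3 lower genes became 0 with the methods' t-test after adjustment and ranged from 0 to 5 with arrays left out, 5 without R1 replicate 1 and 0 without the date of replicate 2 or 3. Between R2 and R1, 4 genes were lower with the methods' t-test at an unadjusted p under 0.05, where 4.58% of all genes were lower, and no other alternative called any. With the replicate block, the counts were 11 higher against R2 and 11 higher and 3 lower against R1, *Dhcr7* against R2 being the call lost (limma adjusted p = 0.0727), and calls over all genes between R2 and R1 went from 78 to 23. The cause of these changes was not tested, and some of these fits also held fewer arrays. Centring arrays on their medians put the median of all genes at 0.04 for R3 minus R2, -0.05 for R3 minus R1, and -0.10 for R2 minus R1, and ended the calls of *Dhcr7* against R2 (0.0539) and of *Fdps* (0.0559) and *Npc1* (0.162) against R1. Signal over background could not be judged without detection calls, which limits *Scd1*, *Lss*, *Nr1h3*, and *Abca1*, the genes below the filter.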
